A study of Mus musculus with 14 samples.

Results

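A set of 10 genes of epithelial cells is described here over all 14 arrays of a mouse expression series. They were taken by symbol, as a list: Cdh1, Epcam, Cldn7, Ocln, Krt8, Krt18, Krt19, Dsp, Esrp1 and Grhl2. They are 10 of the 18193 genes that the array represents by a probe set of a single gene, and of the 12663 genes that were bright enough to test. All 10 members passed that filter, and 19 probe sets read them. For each gene the brightest of its probe sets was used, by the mean over all arrays, and all levels are log2 signals, so that a difference of 1 is a factor of 2. Levels are compared between arrays for the same probe set, never between genes. The 10 genes and the related lists were chosen with earlier results of these data known. Their counts and correlations beside those of all genes are therefore descriptions, not tests.

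The series asked which factors take partial induced pluripotent stem cells (partial iPSCs), which are reprogrammed cells halted short of pluripotency, to the genuine state. Clones 2B1 and 5C5, both female C57BL/6 partial iPSCs grown with LIF and serum, gave 1 untreated array each. Cells of each clone that became iPSCs under 2i, in which MEK and GSK3 are inhibited, gave 1 array each and are called 2i iPSCs here. Of embryonic stem cells (ESCs) there was 1 array of a Nanog-GFP transgenic line (male, C57BL/6) and 1 of the wild-type line EBRTcH3 (male, 129sv), both grown conventionally. Fibroblasts (MEFs) of Nanog-GFP embryos (mixed sex, C57BL/6, 12.5 dpc by the sample title), grown without LIF, gave 1 array. The other 7 arrays were partial iPSCs labelled as clone 2B1 with a retrovirally introduced factor: empty vector (the reference by its label), Cnot1, Cnot2, Cnot3, Trim28, Cnot1,2,3 together, or Nanog. All 3 Cnot proteins belong to Ccr4-Not, the main cytoplasmic deadenylase complex, which shortens poly(A) tails and so starts mRNA decay. By the labels, all factor arrays rest on 1 clone, and every condition with a factor rests on 1 array. The labels do not say which factors first reprogrammed the clones.

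Epithelial cells hold together through adherens junctions built on E-cadherin, tight junctions built on claudins and occludin, and desmosomes that anchor keratin filaments. Fibroblasts lack most of this machinery, and a mesenchymal-to-epithelial transition, in which Cdh1 and Epcam come on, is a known early step of fibroblast reprogramming. Pluripotent mouse cells are themselves epithelial, with E-cadherin at their contacts. Zinc finger repressors of the Snail and Zeb families bind E-boxes in epithelial promoters and shut these genes down, whereas Grhl2 activates them. Esrp1 imposes epithelial splicing on a set of transcripts.

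The promoters of 4 members are shown because their genes behaved differently on these arrays and because all carry the E-box that Snail and Zeb factors bind. Epcam, Cldn7 and Krt8 were among the 5 members that separated the clones and lay low on every Ccr4-Not array, and Krt18 did not separate the clones. Sequences are from RefSeq (GRCm38.p6), 5′ to 3′ on the gene's strand, from 250 bases before to 50 bases after the start site, and capitals mark CAGGTG or its reverse complement CACCTG. They lie at chr17:87635729-87636028 (Epcam, plus strand), chr11:69965171-69965470 (Cldn7, plus strand), chr15:102004293-102004592 (Krt8, minus strand) and chr15:102027966-102028265 (Krt18, plus strand).
Epcam: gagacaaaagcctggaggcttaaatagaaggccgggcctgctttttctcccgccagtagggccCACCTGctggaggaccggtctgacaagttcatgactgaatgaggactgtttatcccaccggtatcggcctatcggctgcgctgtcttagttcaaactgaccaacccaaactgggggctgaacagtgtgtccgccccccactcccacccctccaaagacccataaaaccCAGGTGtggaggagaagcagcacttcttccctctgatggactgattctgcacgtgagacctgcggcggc
Cldn7: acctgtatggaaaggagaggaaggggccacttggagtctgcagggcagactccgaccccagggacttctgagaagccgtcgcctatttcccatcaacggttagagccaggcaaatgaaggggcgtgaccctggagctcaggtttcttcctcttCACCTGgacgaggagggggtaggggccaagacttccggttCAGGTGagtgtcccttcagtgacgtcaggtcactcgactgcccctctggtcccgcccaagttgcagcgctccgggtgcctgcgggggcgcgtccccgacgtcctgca
Krt8: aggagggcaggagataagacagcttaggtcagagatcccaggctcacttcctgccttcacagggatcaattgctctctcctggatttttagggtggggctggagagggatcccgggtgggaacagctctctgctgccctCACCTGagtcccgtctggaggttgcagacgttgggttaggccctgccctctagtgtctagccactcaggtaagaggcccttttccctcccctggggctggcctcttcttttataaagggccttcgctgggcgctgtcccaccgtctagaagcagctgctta
Krt18: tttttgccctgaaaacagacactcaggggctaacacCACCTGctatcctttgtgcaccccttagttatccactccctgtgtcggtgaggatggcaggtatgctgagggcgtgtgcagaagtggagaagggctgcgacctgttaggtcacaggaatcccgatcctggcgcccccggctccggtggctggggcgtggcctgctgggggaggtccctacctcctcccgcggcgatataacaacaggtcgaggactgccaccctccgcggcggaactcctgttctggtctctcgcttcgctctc
The Epcam promoter held this E-box 187 and 19 bases before the start site and the Cldn7 promoter 97 and 57 bases before it. In the Krt8 promoter it lay 111 bases and in the Krt18 promoter 214 bases before the start site. The promoter table held 8 entries for 6 of the 10 members (also Ocln, Dsp and a further start of Cldn7), and 7 of the 8 had the E-box, against 20.2% of all 32851 promoters of the same 300 bases. The entry without it was the further start of Cldn7. The Ocln entries overlap and share an E-box, which was counted in both. The Grainyhead motif AACCNGTT or AACNGGTT, searched on both strands, was in 0 of the 8 entries, against 2.09% of all promoters. These are letter matches and show no binding. Krt8 and Krt18 each carried 1 E-box, and whether the motif bears on the difference between the clones was not tested. Krt18 was low on the scale in both untreated clones (3.63 in 2B1 and 3.71 in 5C5), where background weighs most.

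Before the results, 3 facts on the arrays. The 7 transduced and the 7 other arrays had different value distributions (array means of 5.87 to 5.88 and 6.09), so levels are compared within each set of 7 unless said. The array labelled 2B1 with empty vector was nearer to untreated 5C5 than to untreated 2B1: over the 12663 genes its correlation was 0.960 with 5C5 and 0.926 with 2B1, while the arrays with Cnot1, Cnot2, Cnot3 and Cnot1,2,3 correlated at 0.961 to 0.965 with 2B1 and at 0.920 to 0.936 with 5C5. Of the 1346 genes at least 2-fold apart between the untreated clones, the empty vector array lay nearer 5C5 in 72.5%, the Nanog array in 65.3%, the Trim28 array in 49.6% and the 4 Ccr4-Not arrays in 17.1% to 27.7%. Whether samples or clones were exchanged cannot be told from these files. Single genes lay on either side. Ehf, an epithelial transcription factor, was at 6.45 in untreated 2B1, 3.29 in untreated 5C5 and 6.19 on the empty vector array. Lama1, a primitive endoderm marker, was at 8.65, 4.54 and 5.66 on the same arrays. Both were picked after their values were seen, and these levels cross the 2 sets of 7 arrays. No probe set of Cnot2, Cnot3, Trim28 or Nanog was 2-fold higher on the array of its own factor than on the empty vector array. Nanog was at 3.12 on its own array and 4.11 on the empty vector array, and the Cnot1 transcript was not analysed here. Whether these probe sets read the introduced cDNAs was not tested, and the arrays are named by their labels.

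**Figure D1:**
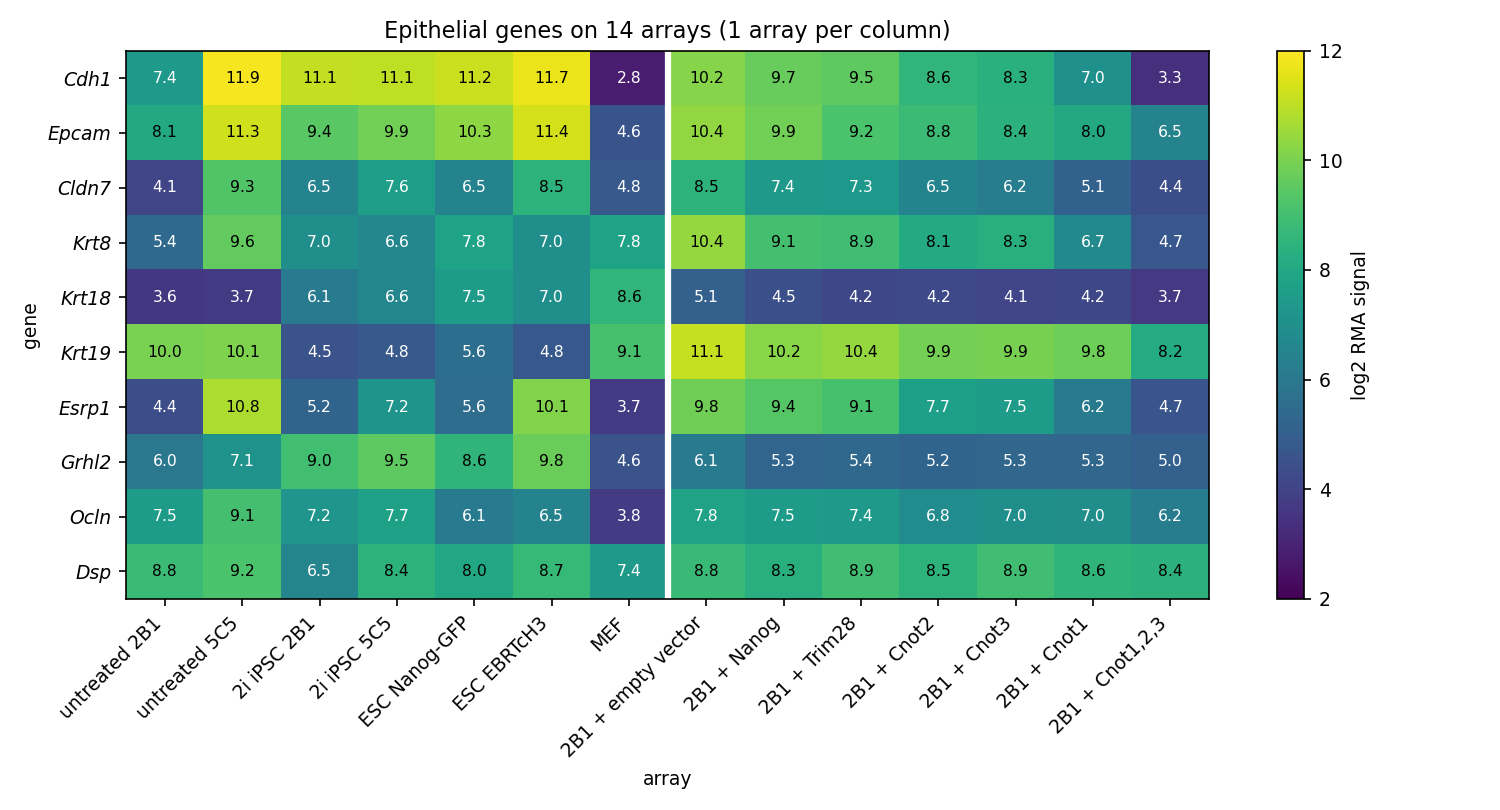
Levels of the 10 genes (rows) on the 14 arrays (columns, 1 array each) as log2 RMA signal, coloured from 2 to 12 and printed in each cell to 1 decimal; the white line parts the 7 untransduced from the 7 transduced arrays. Cdh1 runs from 2.79 in MEFs to 11.87 in untreated 5C5, and within the transduced arrays from 10.17 with empty vector to 3.34 with Cnot1,2,3.

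Between untreated clones 2B1 and 5C5, Esrp1, Cldn7, Cdh1, Krt8 and Epcam differed most of the 10 genes. Of the 10 genes, 7 were at least 2-fold lower in 2B1 than in 5C5 and none was 2-fold higher, against 6.22% lower and 4.41% higher over all genes tested. The median difference was -2.38 over the members and 0.00 over all genes. Each clone gave 1 array, so there is no replicate check of these differences, and in bulk RNA fewer epithelial cells and less RNA per cell cannot be told apart.

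Cdh1, which encodes E-cadherin, the adherens junction protein, was at 7.40 in untreated 2B1 and 11.87 in untreated 5C5. It was at 11.10 and 11.06 in the 2i iPSCs of 2B1 and 5C5, at 11.20 and 11.69 in the Nanog-GFP and EBRTcH3 ESCs, and at 2.79 in MEFs. The 2i iPSCs and ESCs lay within 0.63 of each other and cannot be ordered beyond their spread, 5C5 lay just above them, and 2B1 stood alone between them and the MEFs. The clone difference was -4.47, or 22.1-fold. Epcam, a homophilic adhesion molecule of epithelia and pluripotent cells, was at 8.08 in 2B1 and 11.26 in 5C5, at 9.43 and 9.89 in their 2i iPSCs, at 10.29 and 11.37 in the Nanog-GFP and EBRTcH3 ESCs, and at 4.61 in MEFs. Here 5C5 fell inside the range of the 4 pluripotent arrays and 2B1 below it, 9.07-fold under 5C5. A further, dimmer Epcam probe set spanned only 6.07 to 7.74 over the 14 arrays and was high in MEFs (7.70), so it did not follow the brighter one (Pearson r 0.19 over 14 arrays).

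The tight junction genes split. Cldn7, a claudin that binds Epcam, was at 4.10 in 2B1 and 9.30 in 5C5, at 6.48 and 7.60 in their 2i iPSCs, at 6.49 and 8.46 in the Nanog-GFP and EBRTcH3 ESCs, and at 4.81 in MEFs. It was below the table's median of 5.42 in 2B1 and in MEFs and higher in 5C5 than in any pluripotent array, with a clone difference of -5.20 (36.7-fold) whose lower end is so low on the scale that the fold depends on background. Ocln, which encodes occludin, a membrane protein of the tight junction, was at 7.49 in 2B1 and 9.07 in 5C5, at 7.23 and 7.71 in their 2i iPSCs, at 6.08 and 6.48 in the Nanog-GFP and EBRTcH3 ESCs, and at 3.76 in MEFs. Ocln was thus lower in 2B1 than in 5C5 by the smaller factor of 2.99, and both partial clones lay above both ESC lines. Its other probe set followed it (r 0.97).

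The 3 keratins did 3 different things. Krt8, the type II keratin of simple epithelia, was at 5.43 in 2B1 and 9.59 in 5C5, at 6.97 and 6.62 in their 2i iPSCs, at 7.81 and 6.99 in the Nanog-GFP and EBRTcH3 ESCs, and at 7.79 in MEFs. The clone difference was -4.16 (17.9-fold), with 2B1 below and 5C5 above all 4 pluripotent arrays, and its 3 probe sets agreed (r 1.0). Krt18, the type I partner with which Krt8 forms filaments, was at 3.63 in 2B1 and 3.71 in 5C5, at 6.12 and 6.58 in their 2i iPSCs, at 7.52 and 6.98 in the Nanog-GFP and EBRTcH3 ESCs, and at 8.57 in MEFs. Both partial clones were below the table's median of 5.42, low on the scale, where background weighs most, although Krt8 differed between them. Krt19, another type I keratin of simple epithelia, was at 9.97 in 2B1 and 10.07 in 5C5, at 4.55 and 4.78 in their 2i iPSCs, at 5.63 and 4.76 in the Nanog-GFP and EBRTcH3 ESCs, and at 9.08 in MEFs. It was high in both partial clones and in MEFs and low in all 4 pluripotent arrays. The clone differences of Krt18 and Krt19 were only -0.08 and -0.11.

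Esrp1, the RNA-binding protein that imposes epithelial splicing, had the largest measured clone difference of the 10 genes. It was at 4.38 in 2B1 and 10.75 in 5C5, a difference of -6.37 or 82.9-fold, with 2B1 below the table's median, where a fold depends on background. It was at 5.21 and 7.16 in the 2i iPSCs of 2B1 and 5C5, at 5.58 and 10.12 in the Nanog-GFP and EBRTcH3 ESCs, and at 3.71 in MEFs. The 4 pluripotent arrays spanned 4.91, the widest span of the 10 members, with EBRTcH3 at the top. Grhl2, the Grainyhead-like transcription factor, was at 5.98 in 2B1 and 7.12 in 5C5, at 8.98 and 9.51 in their 2i iPSCs, at 8.56 and 9.76 in the Nanog-GFP and EBRTcH3 ESCs, and at 4.57 in MEFs. Both partial clones lay below all 4 pluripotent arrays and above MEFs, and 2B1 lay 2.21-fold under 5C5. Its 3 other probe sets moved by 1.03 or less over the 14 arrays, and 1 of them ran against the brightest one (Pearson r -0.56). Dsp, which encodes desmoplakin, the link from desmosomes to keratins, was at 8.83 in 2B1 and 9.17 in 5C5, at 6.55 and 8.45 in their 2i iPSCs, at 8.0 and 8.70 in the Nanog-GFP and EBRTcH3 ESCs, and at 7.39 in MEFs. Its clone difference was -0.33, and the lowest array was the 2i iPSCs of 2B1.

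Set against the 4 pluripotent arrays, 2B1 was below all of them in 7 members and 5C5 above all of them in 7. The genes below in 2B1 were Cdh1, Epcam, Cldn7, Krt8, Krt18, Esrp1 and Grhl2, and those above in 5C5 were Cdh1, Cldn7, Krt8, Krt19, Esrp1, Ocln and Dsp. Thus 4 genes, Cdh1, Cldn7, Krt8 and Esrp1, lay below the pluripotent range in one partial clone and above it in the other. For Cdh1 the upper step was small, 11.87 in 5C5 against 11.69 in EBRTcH3 ESCs. The share of all genes outside the pluripotent range was not computed, so these counts describe the members only. MEFs gave the lowest of all 14 values for Cdh1, Epcam, Esrp1, Grhl2 and Ocln, 5 of 10 members against 20.6% of all genes tested, and the highest for Krt18.

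Under 2i, 5 of the genes were higher than before in 2B1 and lower than before in 5C5. In 2B1, 6 members were at least 2-fold higher and 2 lower on the 2i array (11.2% and 8.85% of all genes), and in 5C5 it was 2 higher and 6 lower (11.2% and 9.67%). In 2B1 the 2i array lay above the untreated one by 3.70 for Cdh1, 1.35 for Epcam, 2.38 for Cldn7, 1.54 for Krt8 and 0.83 for Esrp1. In 5C5 the same genes differed by -0.80, -1.37, -1.70, -2.97 and -3.59. These 5 of 10 members were higher in 2B1 and lower in 5C5, against 13.6% of all genes tested (26.2% had opposite signs in either order), and Epcam, Cldn7 and Krt8 were so by at least 2-fold in each clone, against 0.371%. Each clone and state had 1 array, so this difference between clones was not tested. It is also no separate result. The 5 genes are those that differed most between the untreated clones, and the same 2 untreated arrays enter both comparisons. The shares over all genes do not allow for that difference. Between the 2i iPSCs of the clones, 3 members were at least 2-fold lower in 2B1, against 1.25% of all genes lower and 0.482% higher: Cldn7 (-1.11), Esrp1 (-1.95) and Dsp (-1.90). The ESC lines differed too, with 4 members at least 2-fold lower in Nanog-GFP than in EBRTcH3 cells against 6.77% of all genes and none higher against 9.04%, led by Esrp1 (-4.54) and Cldn7 (-1.97).

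**Figure D2:**
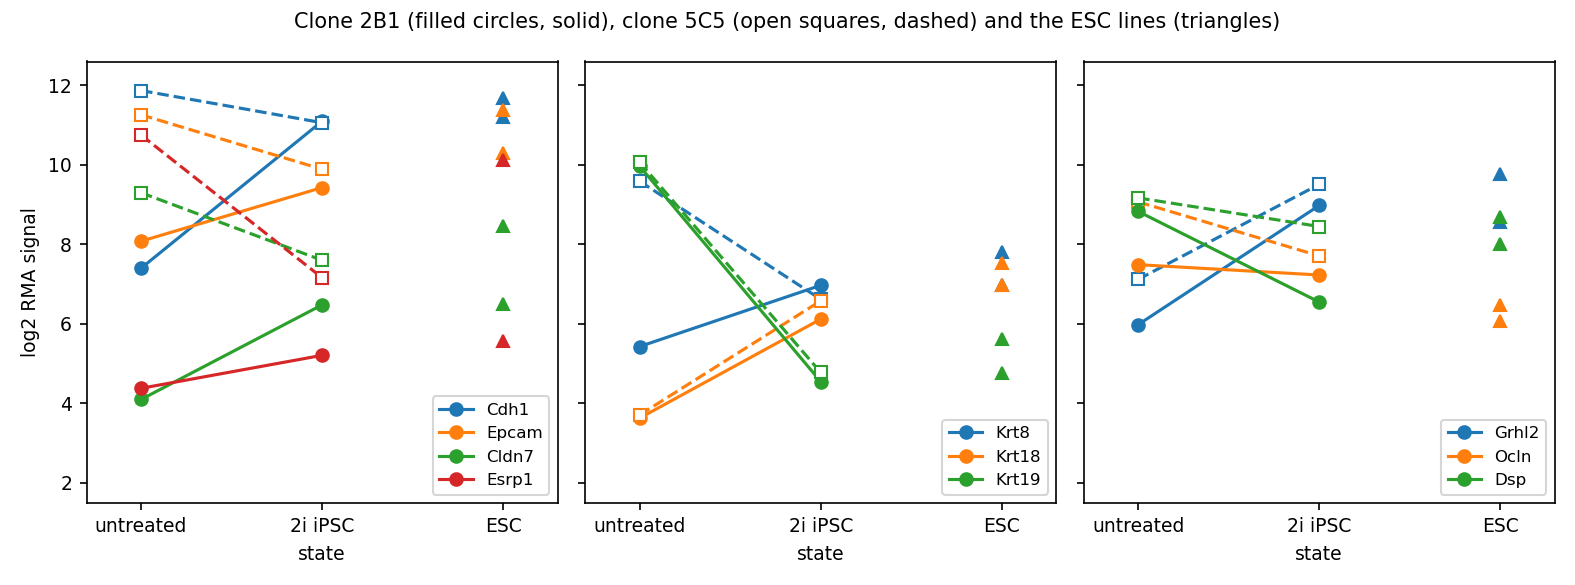
Log2 RMA signal (vertical axis) of the 10 genes in the untreated and 2i arrays of clone 2B1 (filled circles, solid lines) and clone 5C5 (open squares, dashed lines) and in the ESC lines (triangles), 1 array per symbol. The lines of Cdh1, Epcam, Cldn7, Krt8 and Esrp1 run up in 2B1 and down in 5C5, while those of Krt18, Krt19 and Grhl2 run alike in both.

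Krt18, Krt19 and Grhl2 were the members that moved alike in both clones. Over the 12663 genes, limma compared 3 groups of 2 arrays: untreated partial iPSCs, 2i iPSCs and ESCs. No clone or line was repeated within a group, so a p-value here reflects how far separate clones or lines lie apart. From untreated to 2i, Krt18 was higher by 2.49 in 2B1 and 2.86 in 5C5, Grhl2 by 3.00 and 2.39, and Krt19 differed by -5.41 and -5.29. Of the 10 members, 2 were called at an adjusted p below 0.05, against 6.0% of all genes (3.55% higher and 2.46% lower). Krt18 rose by 2.68 ± 0.28 (SE), from 3.67 ± 0.06 (SD, n = 2) to 6.35 ± 0.32 (SD, n = 2), with a limma adjusted p of 0.0122. Krt19 fell from 10.02 ± 0.08 to 4.67 ± 0.16 (SD, n = 2 each), a change of -5.35 ± 0.33 (SE) with a limma adjusted p of 0.00327. Grhl2 missed the threshold at 2.69 ± 0.56 (SE; limma adjusted p 0.0582). Both calls were lost when either 2i array was left out (Krt18 with limma adjusted p of 0.0987 and 0.121, Krt19 with 0.0524 and 0.0519), with like sizes.

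Against the untreated partial iPSCs, the ESCs differed in the same genes. Here 3 of 10 members were called by limma, against 15.9% of all genes (6.09% higher and 9.82% lower). Krt18 was higher in ESCs (7.25 ± 0.39, SD, n = 2) by 3.58 ± 0.28 (SE), with a limma adjusted p of 0.00274. Krt19 was lower (5.19 ± 0.62, SD, n = 2), at -4.83 ± 0.33 (SE) with a limma adjusted p of 0.00198. Grhl2 was higher, 9.16 ± 0.84 against 6.55 ± 0.81 (SD, n = 2 each), by 2.61 ± 0.56 (SE), with a limma adjusted p of 0.0379. This Grhl2 call did not hold without untreated 2B1 (2.04, limma adjusted p 0.119), without EBRTcH3 (2.01, 0.0849), without either 2i array (2.61, 0.0925), or over the mean of its probe sets (0.87, adjusted p 0.0529). Ocln lay at -2.0 ± 0.55 (SE) with a limma adjusted p of 0.0694, and it was called when the clone was kept as a block (adjusted p 0.0471).

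No other member was called from partial to 2i iPSCs or to ESCs. For Cdh1, Epcam, Cldn7, Ocln, Krt8 and Esrp1 the partial clones had the widest spread of the 3 groups, while for Dsp it was the 2i iPSCs (7.5 ± 1.35 against 9.0 ± 0.24 in the partial iPSCs, SD, n = 2 each). Cdh1 averaged 9.64 ± 3.16 in the partial iPSCs, 11.08 ± 0.03 in the 2i iPSCs and 11.45 ± 0.35 in the ESCs (SD, n = 2 each), with limma adjusted p of 0.590 and 0.416. Its values rested on which partial clone was kept. Without untreated 5C5 they were 3.68 and 4.04 (limma adjusted p 0.0215 and 0.00864), and without untreated 2B1 they were -0.78 and -0.42 (0.242 and 0.432), with the lone clone assumed to vary like the other groups. Esrp1 averaged 7.56 ± 4.51, 6.19 ± 1.38 and 7.85 ± 3.21 (SD, n = 2 each), the widest spread of the members in each group. Between 2i iPSCs and ESCs, limma called 0 of 10 members against 3.85% of all genes (3.69% higher and 0.158% lower). At an unadjusted p below 0.05 there was 1 of 10, Krt18, at -0.90 ± 0.28 (SE; limma adjusted p 0.203). Of the 12663 genes tested, 2013 passed that unadjusted threshold, so the single member does not set the list apart.

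Of the marker lists of other cells, those of fibroblasts and naive pluripotent cells differed most between these groups. The mean level of 10 fibroblast genes was 11.97 in MEFs, 7.52 and 7.21 in untreated 2B1 and 5C5, 8.38 and 8.43 in their 2i iPSCs and 4.68 and 4.55 in the ESC lines, and 9 of the 10 were above the table's median in each 2i array against 2 of 10 in each ESC line. The 2i iPSCs thus had a higher mean of these genes than the ESCs and a Cdh1 level within 0.63 of theirs. The 8 naive pluripotency genes averaged 5.34 and 5.06 in untreated 2B1 and 5C5, against 10.95 to 11.49 in the 2i and ESC arrays. Of 7 keratinocyte genes, 2 or 3 were above the table's median in each untransduced array, and their mean was 4.63 in untreated 2B1 and 5.13 in untreated 5C5. Over the same 7 arrays the mean of 9 trophoblast genes ran from 5.15 to 6.33 and that of 9 primitive endoderm genes from 5.27 in untreated 5C5 to 6.87 in the 2i iPSCs of 2B1. Their part in the levels of the 10 genes was not tested.

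On the Ccr4-Not arrays the epithelial genes were lower than with empty vector. Cnot1, Cnot2 and Cnot3 each had 6 of 10 members at least 2-fold lower, against 5.87%, 3.89% and 5.19% of all genes tested, and the same 6 genes on each: Cdh1, Epcam, Cldn7, Krt8, Krt19 and Esrp1. With Cnot1,2,3 together it was 9 of 10, against 8.43%, with Dsp the exception. Of these 9, Krt18 was below the table's median on the empty vector array too. On the Trim28 array 3 members (Epcam, Cldn7 and Krt8) were at least 2-fold lower against 1.52% of all genes, and on the Nanog array 2 (Cldn7 and Krt8) against 0.869%. No member was 2-fold higher on any of these arrays, where 4.15% (Cnot1), 2.87% (Cnot2), 2.49% (Cnot3), 3.72% (Cnot1,2,3), 0.963% (Trim28) and 0.561% (Nanog) of all genes were. All these differences share the 1 empty vector array, which lay nearer 5C5 as described above, and none has a replicate.

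Cdh1 was at 10.17 with empty vector, 7.02 with Cnot1, 8.59 with Cnot2, 8.35 with Cnot3, 3.34 with Cnot1,2,3, 9.50 with Trim28 and 9.66 with Nanog. Its difference from empty vector was -3.15, -1.57 and -1.81 for the single subunits and -6.82 for all 3, a 113-fold lower signal whose lower end was below the table's median, where a fold depends on background. Epcam was at 10.39 with empty vector, 8.04 with Cnot1, 8.80 with Cnot2, 8.44 with Cnot3, 6.47 with Cnot1,2,3, 9.16 with Trim28 and 9.88 with Nanog. It kept the order of Cdh1 on a narrower scale, with -3.92 (15.1-fold) for Cnot1,2,3.

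Cldn7 was at 8.48 with empty vector, 5.12 with Cnot1, 6.51 with Cnot2, 6.22 with Cnot3, 4.39 with Cnot1,2,3, 7.33 with Trim28 and 7.39 with Nanog. Ocln moved little, from 7.75 with empty vector to 6.95 with Cnot1, 6.84 with Cnot2, 6.98 with Cnot3, 6.19 with Cnot1,2,3, 7.36 with Trim28 and 7.51 with Nanog. Only the Cnot1,2,3 array took Ocln past 2-fold (-1.57), against -4.09 for Cldn7.

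Krt8 was at 10.41 with empty vector, 6.73 with Cnot1, 8.13 with Cnot2, 8.29 with Cnot3, 4.70 with Cnot1,2,3, 8.92 with Trim28 and 9.06 with Nanog. It was lower on every factor array, by -1.49 for Trim28 and -1.35 for Nanog and down to -5.71 for Cnot1,2,3. Krt18 was at 5.06 with empty vector, 4.15 with Cnot1, 4.19 with Cnot2, 4.10 with Cnot3, 3.67 with Cnot1,2,3, 4.16 with Trim28 and 4.45 with Nanog, all below the table's median. Krt19 was at 11.14 with empty vector, 9.80 with Cnot1, 9.92 with Cnot2, 9.95 with Cnot3, 8.15 with Cnot1,2,3, 10.40 with Trim28 and 10.21 with Nanog. Krt18 and Krt19, the keratins with the smaller clone differences, were both lower on the Ccr4-Not arrays: Krt18 differed by -0.87 to -0.96 for single subunits and by -1.39 for all 3, and Krt19 by -1.19 to -1.34 and by -3.00.

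Esrp1 was at 9.82 with empty vector, 6.16 with Cnot1, 7.65 with Cnot2, 7.52 with Cnot3, 4.65 with Cnot1,2,3, 9.09 with Trim28 and 9.36 with Nanog. The Trim28 and Nanog arrays stayed within -0.73 and -0.47 of the empty vector array, while the single subunits were at -3.66, -2.17 and -2.30. Grhl2 was at 6.10 with empty vector and between 5.05 and 5.38 on all 6 factor arrays, and so did not part Ccr4-Not from Trim28 or Nanog. Dsp was at 8.77 with empty vector, 8.56 with Cnot1, 8.46 with Cnot2, 8.94 with Cnot3, 8.44 with Cnot1,2,3, 8.94 with Trim28 and 8.29 with Nanog, within 0.48 of empty vector everywhere.

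All 4 Ccr4-Not arrays lay below empty vector in 9 of 10 members, against 32.6% of all genes tested, and by at least 2-fold in 6, against 3.17%. In the same 9 members the Cnot1,2,3 array was the lowest of the Ccr4-Not arrays, the single subunits lay between, and empty vector was highest, against 14.4% of all genes tested. These orders compare 1 array with 1 array. Of the 9 members, Krt18 was below the table's median of 5.42 on all 7 transduced arrays. Grhl2 was at 6.10 with empty vector and below that median on all 4 Ccr4-Not arrays. A dimmer Grhl2 probe set went the other way, at 5.52 with empty vector and 5.92 to 6.33 on the Ccr4-Not arrays. Fibroblast markers were also a little higher with Cnot1,2,3 (mean 6.29 over the 10 genes) than with empty vector (5.62) or on the other factor arrays (5.66 to 5.83). The keratinocyte mean was 5.39 with empty vector and 4.67 with Cnot1,2,3. Their part in the result was not tested.

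The direction depends on the control array. Untreated 2B1, which is in the other set of 7 arrays, was taken as control by the deposited values, without centring. Against it, Cldn7, Krt8 and Esrp1 were at least 2-fold higher on the Cnot1 array (1.01, 1.30 and 1.79) and on the Cnot3 array (2.12, 2.85 and 3.14). On the Cnot2 array these 3 genes (2.41, 2.70 and 3.28) and Cdh1 (1.19) were, and only on the Cnot1,2,3 array were members at least 2-fold lower, namely Cdh1, Epcam, Krt19 and Ocln. The empty vector array itself lay above untreated 2B1, with each array centred on its median, by 2.92 for Cdh1, 2.47 for Epcam, 4.53 for Cldn7, 5.14 for Krt8, 1.59 for Krt18, 1.34 for Krt19 and 5.60 for Esrp1. For Grhl2, Ocln and Dsp it lay above by 0.28, 0.42 and 0.09. With the mean of the Trim28 and Nanog arrays as control, 5 members were at least 2-fold lower with Cnot1, 1 (Esrp1) with Cnot2, 4 with Cnot3 and 7 with Cnot1,2,3. Shares of all genes were not computed for either of these controls, so the counts describe the members only.

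The differences on the Ccr4-Not arrays ran along the difference between the clones. Over the 10 members, the difference from empty vector had a Pearson correlation with untreated 2B1 minus 5C5 of 0.93 for Cnot1, 0.87 for Cnot2, 0.86 for Cnot3 and 0.81 for Cnot1,2,3. Over all 12663 genes it was 0.70, 0.68, 0.69 and 0.62, so the relation was not one of epithelial genes alone. For Trim28 it was 0.45 over the members and 0.45 over all genes, and for Nanog 0.16 and 0.18. These are descriptions over genes of single arrays, which share the empty vector array on one side. Spearman's rho over the members was 0.73 for Cnot1 and 0.77 for each of Cnot2, Cnot3 and Cnot1,2,3. Krt19 stood off the line, at -0.11 between the clones and -3.00 on the Cnot1,2,3 array, and so did Cdh1, at -4.47 and -6.82.

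**Figure D3:**
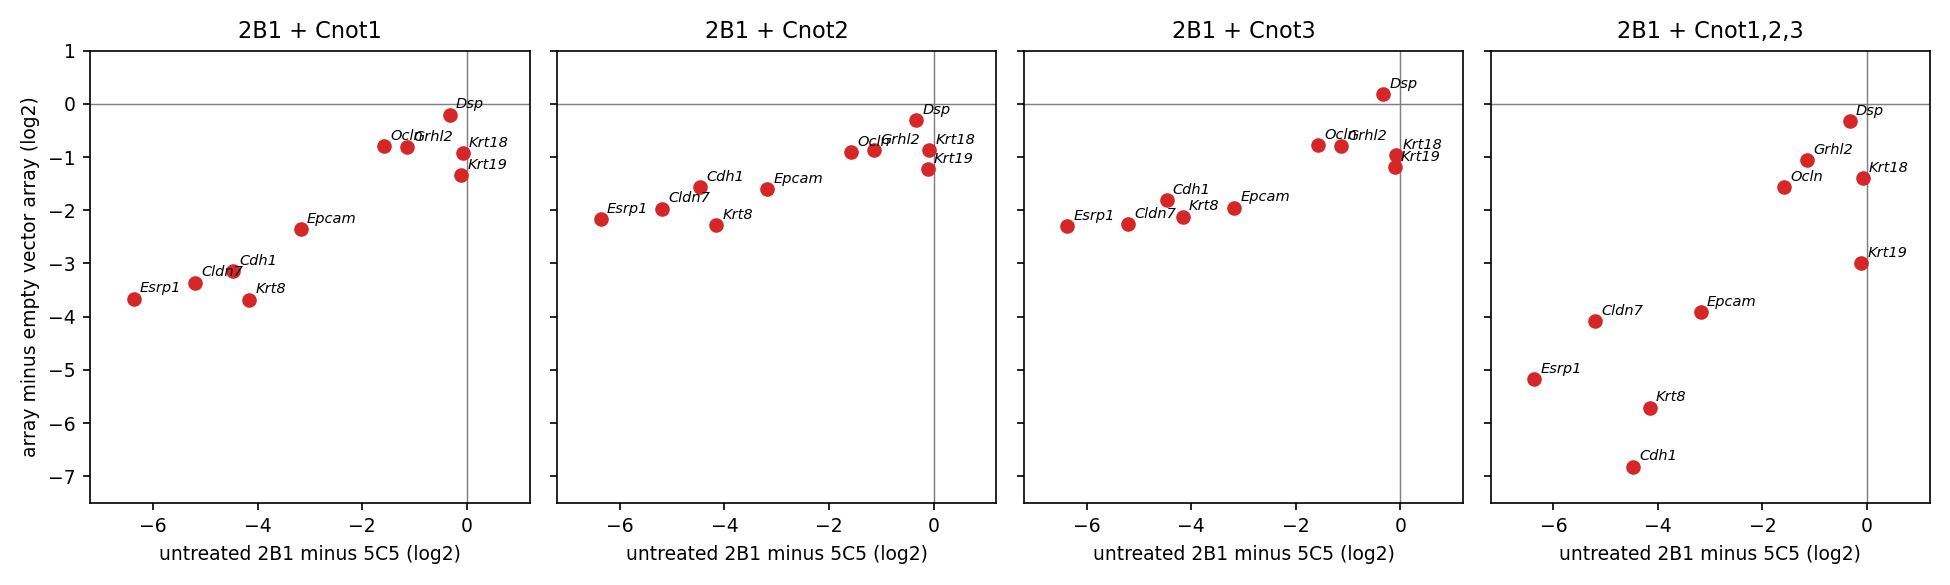
For each of the 10 genes (1 labelled point each), the log2 difference of untreated 2B1 minus untreated 5C5 (horizontal) against the log2 difference of a Ccr4-Not array minus the empty vector array (vertical), with a panel per array. Points at the lower left (Esrp1, Cldn7, Cdh1, Krt8, Epcam) are low in 2B1 and low on all 4 Ccr4-Not arrays, and Krt19 lies at -0.11 on the horizontal axis and at -3.00 with Cnot1,2,3.

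The members Cdh1, Epcam, Cldn7, Krt8 and Esrp1, were at least 2-fold lower both in 2B1 than in 5C5 and on all 4 Ccr4-Not arrays than with empty vector, as were 2.23% of all genes tested. For these 5 genes, the empty vector array was nearer to untreated 5C5 and the Cnot1 and Cnot1,2,3 arrays nearer to untreated 2B1. The Cnot2 and Cnot3 arrays were nearer to 2B1 for Cdh1, Epcam and Cldn7 and nearer to 5C5 for Krt8 and Esrp1. Of the 380 genes at least 4-fold apart between the clones, the empty vector array lay nearer 5C5 in 75.0%. The share was 7.9% for Cnot1, 24.7% for Cnot2, 20.0% for Cnot3 and 11.1% for Cnot1,2,3. The 5 genes were picked by these same differences, so the placing is no separate result. With arrays centred on the median, Cnot1,2,3 lay below untreated 2B1 for Cdh1 (-3.9), Epcam (-1.45) and Krt8 (-0.57). For Cldn7 (0.44) and Esrp1 (0.43) it lay above. Of all genes at least 2-fold lower in 2B1 than in 5C5, 53.9% were also at least 2-fold lower with Cnot1 (57.2% of that array's list), and 59.4% with Cnot1,2,3 (43.9% of its list).

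Related gene lists showed which epithelial modules went along. Of 17 tested junction genes, 8 were at least 2-fold lower in 2B1 than in 5C5 and 8 on the Cnot1,2,3 array than with empty vector, and none was 2-fold higher in either. Cldn4, a further claudin, was at 3.91 in 2B1 and 7.89 in 5C5 (-3.98), and at 7.27 with empty vector and 4.58 with Cnot1,2,3 (-2.69). Marveld3, a tight junction protein of the occludin family, differed by -2.87 and -2.54. Of 11 other surface and traffic genes, 7 and 5 were lower and none higher, led by Mal2, an apical sorting protein (-4.22 and -3.30), and Rab25, an epithelial recycling GTPase (-3.34 and -1.94). Over all genes the shares lower were 6.22% and 8.43%, with medians of 0.00 and -0.01.

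Desmosome genes and other keratins split. Of 9 desmosome and cornified envelope genes, 3 were lower in 2B1 and 4 on the Cnot1,2,3 array, with Ppl (-2.76 and -2.62) and Evpl (-2.28 and -2.50), which encode periplakin and envoplakin, ahead of Dsg2, a desmosomal cadherin (-2.05 and -1.77). Pkp2, a desmosomal plaque protein, was higher on that array (1.91). Of 9 tested keratins besides the members, Krt20 (-3.52 and -5.14) and Krt17 (-2.53 and -1.88) were lower in both, and Krt14 was lower on the Cnot1,2,3 array (-2.69). Over all genes, 6.22% were lower and 4.41% higher in 2B1, and 8.43% lower and 3.72% higher on the Cnot1,2,3 array.

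The known regulators of these genes included some that were higher and some that were lower. Of 8 epithelial regulators, Ovol2 (-1.61) and Esrp2 (-1.54), the paralog of Esrp1, were at least 2-fold lower in 2B1 and Ehf was higher (3.17), against 6.22% lower and 4.41% higher over all genes, and on the Cnot1,2,3 array none passed 2-fold either way. Of 8 repressors of epithelial genes, Zeb1 was at least 2-fold higher in 2B1 than in 5C5 (10.63 against 8.68, a difference of 1.94). Zeb1 was at 9.52 with empty vector, 10.80 with Cnot1, 10.67 with Cnot2, 10.02 with Cnot3 and 9.73 with Cnot1,2,3. It was thus at least 2-fold higher with Cnot1 (1.27) and Cnot2 (1.14), as were 4.15% and 2.87% of all genes. Of the 8 repressors, 4 were at least 2-fold lower with Cnot1 and 2 with Cnot2, against 5.87% and 3.89%. With Cnot1,2,3, Twist2 was higher (1.88) and Twist1 and Snai2 lower (-1.64 and -1.25). Of 8 mesenchymal genes, Cdh11 (2.50), S100a4 (2.16) and Thy1 (1.25) were higher with Cnot1,2,3 and Fn1 lower (-1.62), while between the clones Ncam1 (1.56) alone passed 2-fold. Over all genes, 3.72% were higher and 8.43% lower on the Cnot1,2,3 array.

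In the groups of 2 arrays, each of 2 clones or lines, the repressors parted the 2i iPSCs from the ESCs. By limma, 5 of the 8 repressors were higher in 2i iPSCs than in ESCs, against 3.69% of all genes higher, and 0 lower. Snai2 (2.93 ± 0.21, SE; limma adjusted p 0.00428) and Twist2 (3.09 ± 0.22, SE; limma adjusted p 0.00428) were among them, while the 10 epithelial members had no call in that comparison. Of the 8 regulators, 3 rose from partial to 2i iPSCs by limma, against 3.55% of all genes: Klf5 (3.18 ± 0.55, SE; limma adjusted p 0.0385), Rbm47 (3.10 ± 0.26; 0.00724) and Grhl3 (1.64 ± 0.22; 0.0227). Klf5 is a Krüppel-like factor of epithelia and pluripotent cells, Rbm47 is a splicing factor of epithelia, and Grhl3 is a paralog of Grhl2. Of the called repressors, Twist2 and Prrx1 were also among the 10 fibroblast genes above. Whether the calls of these lists hold with single arrays left out was not checked.

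Of 6 transcripts that Esrp proteins are known to splice, Fgfr2 (-1.02), the fibroblast growth factor receptor with an epithelial exon choice, was at least 2-fold lower in 2B1 than in 5C5, against 6.22% of all genes, and 0 of 6 passed 2-fold on the Cnot1,2,3 array. Cd44, a hyaluronan receptor, was lower in ESCs than in partial iPSCs by limma (-8.81 ± 0.18, SE; adjusted p 0.000249) and higher in 2i iPSCs than in ESCs (8.28 ± 0.18, SE; adjusted p 0.000538). The probe sets used here give 1 value a gene, and exon choice was not analysed here.

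**Figure D4:**
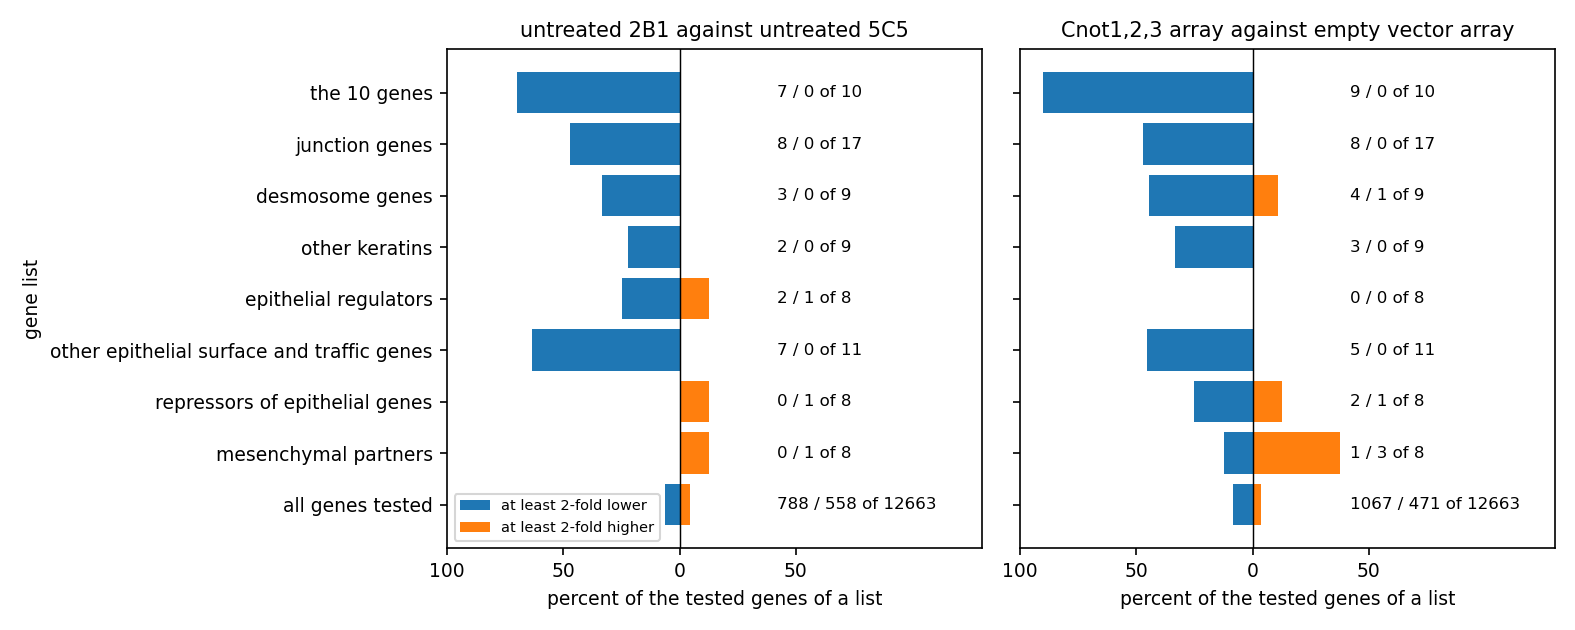
Percent of the tested genes of each list (horizontal axis, both directions from 0) that were at least 2-fold lower (blue, left) or higher (orange, right), for untreated 2B1 against 5C5 and for the Cnot1,2,3 array against empty vector; the counts stand at the right. The 10 genes have the longest bars to the left (7 and 9 of 10), and repressors and mesenchymal genes lie at or to the right of 0 in the clone comparison.

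Among the members, the patterns over the 14 arrays fell into groups. Cdh1 and Epcam had a Pearson correlation of 0.96 and Cldn7 and Esrp1 of 0.90, whereas Krt19 and Grhl2 had -0.86 and Cdh1 and Krt18 0.04. The 14 arrays share clones and 2 value distributions, so these describe likeness only. A range of at least 2 was reached by 4941 tested genes, members included. Of those outside the list, the ones most like Epcam were Spint2 (0.964), a serine protease inhibitor of epithelia, and Hook1 (0.963), a microtubule adaptor, followed by Ddb2 (0.959). Those most like Cdh1 were BC052040 (0.941), Tjp3 (0.935), a tight junction scaffold, and Bex1 (0.935). The genes most like Esrp1 were Grb7 (0.943), Frem2 (0.918) and Elovl7 (0.903), and those most like Krt8 were Esam (0.929), Gnai1 (0.922) and Arc (0.905). Krt19 was most like Cdkn2a (0.957), the Ink4a/Arf cell cycle inhibitor locus, Car12 (0.952) and Hoxa9 (0.950), which were all high in the partial iPSCs and low in ESCs. Cdkn2a was at 8.49 and 8.34 in untreated 2B1 and 5C5 and at 4.70 and 4.65 in the Nanog-GFP and EBRTcH3 ESCs.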

How the data were processed

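Total RNA of 14 mouse cell samples was hybridised as biotinylated cRNA to Affymetrix arrays, 1 array per sample, per the labels. The deposited log2 signals were made by the authors with RMA and affy, per the submitters' processing notes, and their versions were not given in the sources used here. Of 45101 probe sets, 34945 had exactly 1 gene in the platform annotation. The brightest probe set on average stood for a gene, and 12663 of 18193 genes reached the table's median (5.42) on at least 2 of 14 arrays. Differences were computed within each of 2 sets of 7 arrays that appear separately normalized. The 3 groups of 2 arrays entered 1 limma fit (version 3.58.1, R 4.3.3; degrees of freedom 3 residual, 2.25 prior), two-sided, with Benjamini-Hochberg adjustment over all genes; the fit was tested on simulated data. The number of arrays limits the precision, and conditions with 1 array have no test. The clone pairs its untreated with its 2i array, and their deviations correlated at 0.11 over genes; a fit with the clone as a block was an alternative, beside other normalizations, filters, probe set rules, control arrays and single arrays left out. The 10 members, lists and markers were chosen with earlier results of these data known. All members are named, at most the 4 genes of largest difference from each list, and the 3 genes most correlated with each of 5 members. Ehf and Lama1 on the empty vector array, Zeb1 on the Ccr4-Not arrays and Cdkn2a were singled out after their values were seen. Promoters were matched by symbol.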

Additional observations from a re-analysis of the deposited data

Results flagged for a closer look

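In 5 of the 10 genes the 2i array lay above the untreated array in clone 2B1 and below it in clone 5C5. For Cdh1 the log2 difference was 3.70 in 2B1 and -0.80 in 5C5, for Epcam 1.35 and -1.37, and for Cldn7 2.38 and -1.70. For Krt8 it was 1.54 and -2.97, and for Esrp1 0.83 and -3.59. Each clone had 1 array per state, so the difference between the clones was not tested. Opposite signs were seen in 26.2% of all genes tested. The 5 genes are those that differed most between the untreated clones. The same untreated arrays enter both comparisons, so the signs are no separate result.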

How the results depend on the processing

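With the clone as a replicate block, limma called 2 members from untreated to 2i (Krt18, Krt19), 4 for ESCs against partial iPSCs (Ocln added) and 0 for 2i iPSCs against ESCs. Leaving out single arrays, the counts ran from 0 to 3, from 2 to 4 and stayed at 0; the first was 0 without either 2i array. Uncalled members changed sign as arrays were left out. For 2i against partial iPSCs the ranges were -0.78 to 3.68 (Cdh1), -1.60 to 1.58 (Epcam), -2.26 to 2.94 (Cldn7), -2.79 to 1.36 (Krt8) and -4.57 to 1.81 (Esrp1). For ESCs against partial iPSCs they were -0.42 to 4.04 (Cdh1), -0.43 to 2.75 (Epcam), -1.83 to 3.37 (Cldn7), -2.19 to 1.97 (Krt8) and -2.90 to 3.47 (Esrp1). For 2i iPSCs against ESCs they were -1.42 to 0.55 (Cldn7), -1.80 to 0.11 (Dsp), -3.93 to 0.61 (Esrp1) and -0.51 to 0.68 (Grhl2). Over the mean of a gene's probe sets, Epcam turned to 0.16 (2i against partial) and Grhl2 to -0.18 (2i against ESC). With untreated 2B1 as control, by deposited values without centring, the counts of members 2-fold apart were 3 (Cnot1), 3 (Cnot3) and 4 (Cnot1,2,3). Signs turned for Cldn7, Krt8 and Esrp1 with Cnot1 (1.01, 1.30, 1.79), for Cdh1, Epcam, Cldn7, Krt8 and Esrp1 with Cnot2 (1.19, 0.71, 2.41, 2.70, 3.28) and with Cnot3 (0.95, 0.36, 2.12, 2.85, 3.14), and for Cldn7, Krt18 and Esrp1 with Cnot1,2,3 (0.29, 0.04, 0.27). Krt18, which was not 2-fold from empty vector on the single-subunit arrays, turned there too (0.52, 0.56, 0.47). With the mean of Trim28 and Nanog as control, chosen after seeing the data, 1 member was 2-fold lower with Cnot2. Shares of all genes were not computed for this control or for untreated 2B1 as control. Spearman's rho in place of Pearson's r was 0.73 for Cnot1 and 0.77 for Cnot2. The cause of these shifts was not tested. The count of 7 members between the clones was 6 or 7 under all normalizations, probe set rules and folds tried, and the 5 genes of opposite 2i effect numbered 5 under both alternatives.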
